A study of Saccharomyces cerevisiae with 7 samples.

Results

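The genes described here are the 7 genes with which Saccharomyces cerevisiae takes up and retains iron bound to siderophores: FIT1, FIT2, FIT3, ARN1, ARN2, SIT1 and ENB1. They were chosen by gene name, as the probe sets whose platform symbol is among these 7. All 7 were measured, each by 1 probe set, out of 5498 probe sets named to 5449 genes. Transcript levels were measured on Affymetrix Yeast Genome 2.0 arrays, 1 array per culture, in 4 wild-type and 3 hmt1 deletion cultures, which the labels call biological replicates. The wild type was BY4741, a haploid MATa laboratory strain with the alleles his3∆1, leu2∆0, met15∆0 and ura3∆0. The deletion strain was BY4741 with a KANMX4 cassette in place of HMT1, which encodes the enzyme behind most arginine methylation of yeast proteins, so it shared those alleles. The labels do not say whether its 3 cultures came from 1 clone, nor whether these arrays came from rich, phosphate-replete or phosphate-depleted medium.

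Siderophores are small molecules that bacteria and fungi release to bind ferric iron. S. cerevisiae makes none of its own but takes up iron from those of other organisms. The FIT proteins are mannoproteins anchored in the cell wall that help to retain siderophore-iron there, and ARN1, ARN2, SIT1 and ENB1 encode transporters of the major facilitator superfamily that import the iron-siderophore complex. When cellular iron is low, the transcription factor Aft1, with its paralog Aft2, activates these genes together with the reductive iron uptake system of surface reductases, the ferroxidase Fet3 and the permease Ftr1.

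Levels are RMA values on the log2 scale, and a difference is the deletion mean minus the wild-type mean on it. HMT1 itself lay between 11.58 and 12.10 in the wild type and between 4.50 and 5.03 in the deletion strain, a difference of -7.07 (SE 0.15) with a limma adjusted p of 4.89e-07. The array medians lay between 9.95 and 9.98. The wild-type arrays were not uniform: in replicates 1 and 3 the J01347 reporter probe sets lay between 3.18 and 4.44, and in the remaining 5 arrays between 6.16 and 12.59. For this reason the values of the 7 genes and the medians of the iron gene lists are also given against each of these pairs. The cultures are bulk samples, so fewer cells expressing a gene and less RNA per cell cannot be told apart.

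None of the 7 genes passed the test of a difference between the strains, and the spread between cultures of 1 strain was wide. At a limma adjusted p under 0.05, 0 of the 7 passed, where 0.2% of all probe sets did, and the adjusted p of the 7 genes lay between 0.742 and 0.984. At an unadjusted p under 0.05, 1 of the 7 (FIT1) passed, against 6.64% of all probe sets. The arrays of the groups overlapped for all 7 genes, while they did not overlap in 7.64% of all probe sets. By mean, 6 of the 7 genes were lower in the deletion strain and SIT1 was 0.03 higher, where 47.5% of all probe sets were lower. The median difference of the 7 genes was -0.18, and that of all probe sets was 0.0065.

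**Figure D1:**
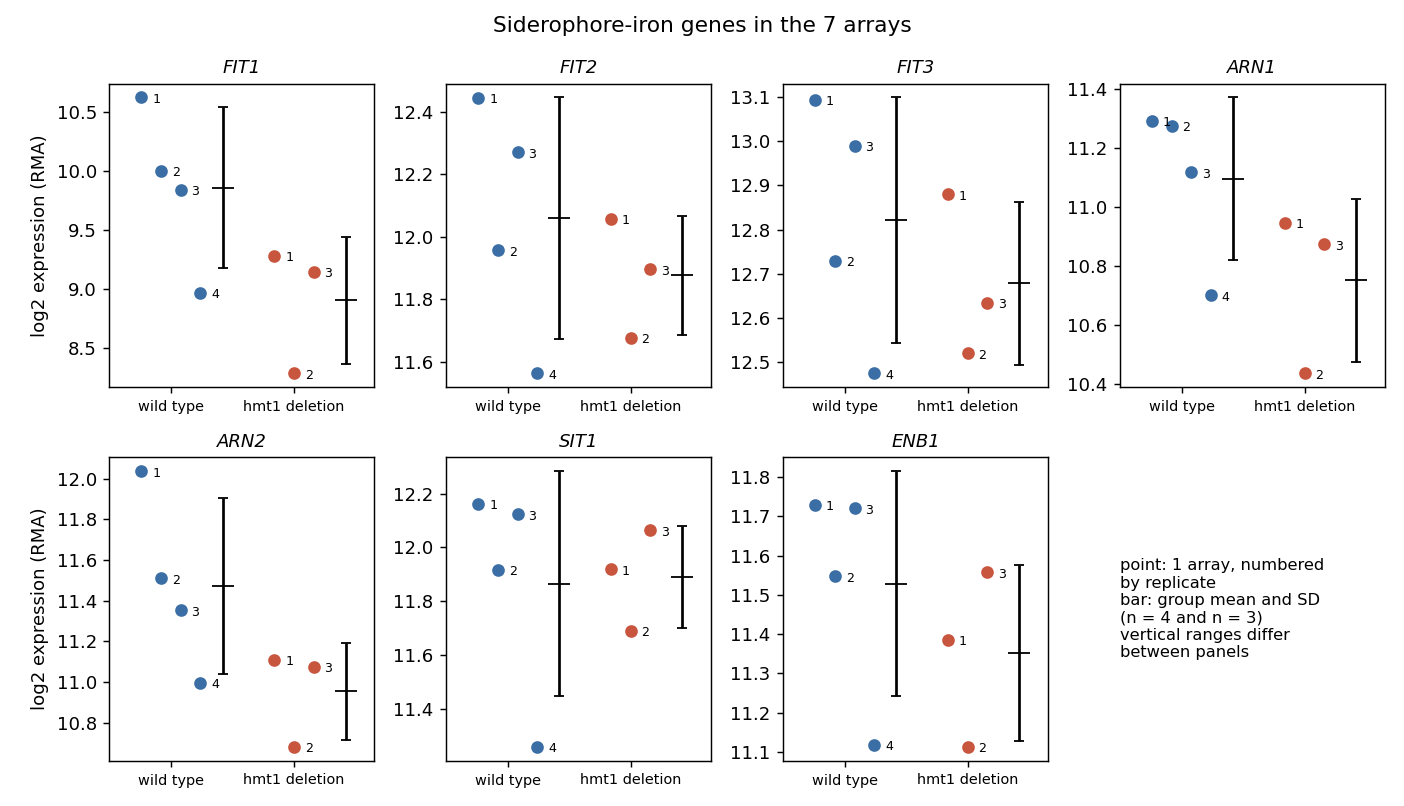
Log2 expression of the 7 siderophore-iron genes in each array, with 1 panel per gene; points are arrays numbered by replicate (wild type blue, hmt1 deletion red), and the bars are the group mean and SD (n = 4 and n = 3). In every panel the groups overlap, wild-type replicate 4 is the lowest wild-type array, and deletion replicate 2 is the lowest deletion array.

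Of the cell wall proteins, FIT1 had the widest values. FIT1 stood at 10.63, 10.00, 9.84 and 8.97 in wild-type replicates 1 to 4 and at 9.28, 8.29 and 9.15 in deletion replicates 1 to 3. Wild-type replicate 4 lay below deletion replicates 1 and 3, and the other 3 wild-type arrays lay above all deletion arrays. The wild-type mean was 9.86 ± 0.68 (SD, n = 4) and the deletion mean 8.90 ± 0.54 (SD, n = 3). The difference of -0.96 (SE 0.39, 95% interval -1.86 to -0.05), or a 1.94-fold lower level, did not pass the test over all probe sets (limma adjusted p = 0.742). For FIT1 the exact permutation test, two-sided, gave p = 0.114, where the smallest value that the 35 splits of the arrays allow is 0.0286. The wild-type arrays alone differed by up to 3.16-fold in FIT1, which is more than the difference between the group means.

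FIT2 and FIT3, the other cell wall mannoproteins, differed less. FIT2 was at 12.45, 11.96, 12.27 and 11.56 in the wild-type replicates and at 12.06, 11.68 and 11.90 in the deletion replicates. All 3 deletion arrays lay within the wild-type range. Its difference was -0.18 (SE 0.20, 95% interval -0.65 to 0.29, limma adjusted p = 0.856). FIT3 was at 13.09, 12.73, 12.99 and 12.47 in the wild type and at 12.88, 12.52 and 12.63 in the deletion strain, again inside the wild-type range. The FIT3 difference was -0.14 (SE 0.16, 95% interval -0.51 to 0.22, limma adjusted p = 0.856). FIT3 was the brightest of the 7 probe sets, with a maximum of 13.09 against 14.63 for any probe set on any array. Whether differences were compressed at this brightness was not tested.

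Among the transporters, ARN2, which imports the fungal siderophore triacetylfusarinine C, had the largest difference. ARN2 was at 12.04, 11.51, 11.35 and 11.00 in the wild-type replicates and at 11.11, 10.68 and 11.08 in the deletion replicates. As for FIT1, only wild-type replicate 4 reached into the deletion range. The difference of -0.52 (SE 0.23, 95% interval -1.05 to 0.01) did not pass (limma adjusted p = 0.742). ARN1, a transporter of ferrichromes, was at 11.29, 11.28, 11.12 and 10.70 in the wild type and at 10.95, 10.44 and 10.87 in the deletion strain. Its overlap was again made by wild-type replicate 4 alone. The ARN1 difference was -0.35 (SE 0.18, 95% interval -0.75 to 0.06, limma adjusted p = 0.799).

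SIT1, the transporter of ferrioxamine B, showed the smallest difference. It was at 12.16, 11.92, 12.12 and 11.26 in the wild-type replicates and at 11.92, 11.69 and 12.06 in the deletion replicates. The deletion arrays fell inside the wild-type range, at means of 11.86 ± 0.42 (SD, n = 4) and 11.89 ± 0.19 (SD, n = 3). The SIT1 difference was 0.03 (SE 0.22, limma adjusted p = 0.984), and its 95% interval of -0.48 to 0.53 leaves room for a change in either direction. ENB1, the transporter of the bacterial siderophore enterobactin, was at 11.73, 11.55, 11.72 and 11.12 in the wild type and at 11.39, 11.11 and 11.56 in the deletion strain. Deletion replicate 2 and wild-type replicate 4 were nearly equal and the lowest of their groups. The ENB1 difference was -0.18 (SE 0.17, 95% interval -0.57 to 0.21, limma adjusted p = 0.840).

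The spread between cultures of 1 strain was wide for all 7 genes, and they shared the arrays in which they were low. The SD lay between 0.28 and 0.68 over the wild-type arrays, where the median probe set had 0.13, and between 0.18 and 0.54 over the deletion arrays, where the median was 0.071. Over all 7 arrays, 0.491% of probe sets had a larger SD than FIT1, and 10.7% had a larger SD than FIT3, the least variable of the 7. Wild-type replicate 4 was the lowest wild-type array and deletion replicate 2 the lowest deletion array in 7 of 7 genes. Over all probe sets, wild-type replicate 4 was the lowest in 15.7%, deletion replicate 2 in 45.3%, and both held in 5.27%. Relative to the group mean, the 7 genes lay between -0.89 and -0.35 in wild-type replicate 4 and between -0.62 and -0.16 in deletion replicate 2. The median deviations of all probe sets in these arrays were -0.0073 and -0.011. Wild-type replicate 1 was the highest wild-type array for all 7 genes, at 0.20 to 0.77 above the mean.

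**Figure D2:**
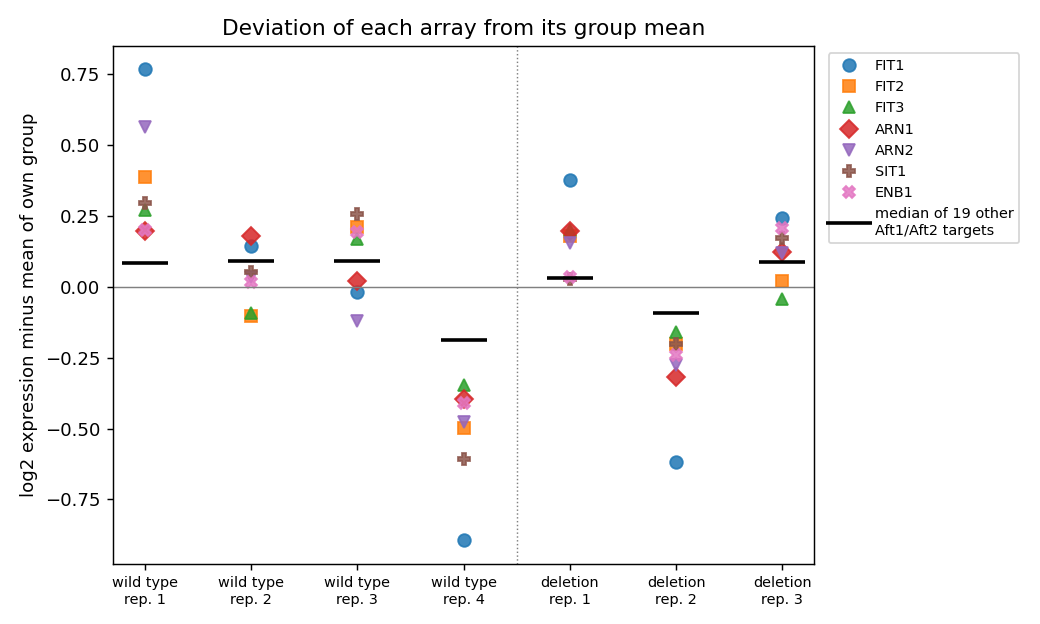
Deviation of each array from the mean of its own group (log2) for the 7 genes (symbols) and for the median of 19 other Aft1/Aft2 targets (black dashes). All 7 genes lie below 0 in wild-type replicate 4 (-0.89 to -0.35) and in deletion replicate 2 (-0.62 to -0.16).

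The comparison therefore depended on which wild-type arrays the deletion strain was set against. Against wild-type replicates 1 and 3, all 7 genes were lower, with a median of -0.45 and differences from -1.33 (FIT1) to -0.25 (SIT1). At an unadjusted p under 0.05, 6 of the 7 were lower in that comparison, where 3.73% of all probe sets were. That pair holds replicate 1, the highest wild-type array for all 7 genes, and leaves out replicate 4, the lowest. The 7 genes moved together by array, so the 6 are not independent and the share is not a like comparison. None passed after adjustment (limma adjusted p from 0.486 to 0.803), where 0.127% of all probe sets did. Against wild-type replicates 2 and 4, 3 genes were lower and 4 higher, with a median of 0.02, from -0.58 (FIT1) to 0.30 (SIT1). None passed there before adjustment (7.78% of all probe sets were lower at that threshold) or after it (limma adjusted p from 0.442 to 0.960, where 0.2% passed). The signs of FIT2 (0.12), FIT3 (0.08) and ENB1 (0.02) against replicates 2 and 4 were opposite to those over all arrays. FIT1, ARN1 and ARN2 were lower against both pairs, with ARN1 at -0.45 and -0.24 and ARN2 at -0.74 and -0.30. The J01347 reporter signal divides the same pairs, and its part in these differences was not tested.

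**Figure D3:**
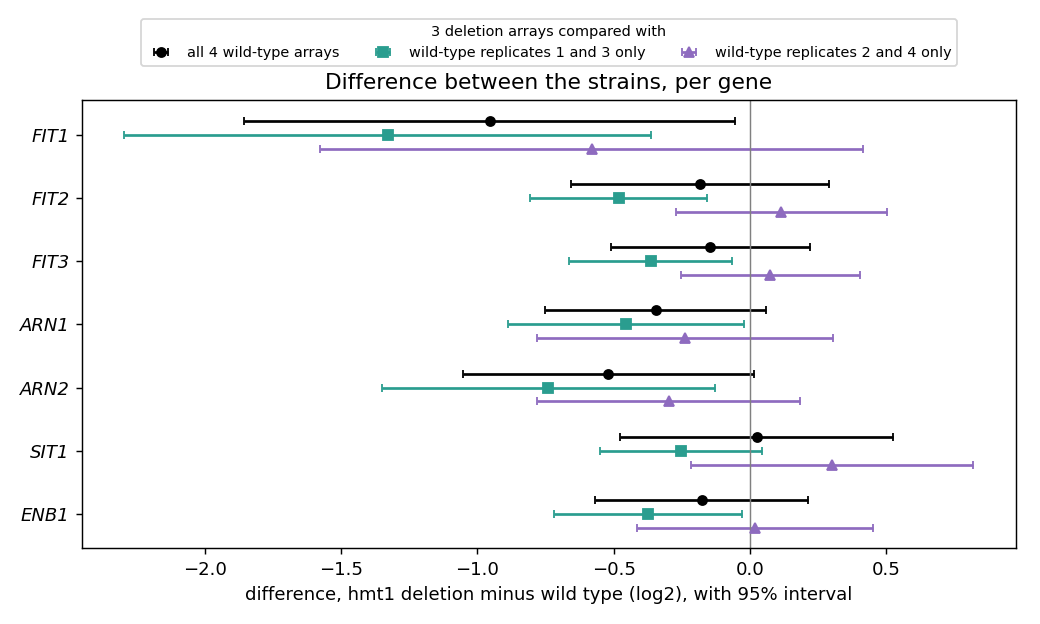
Difference between the strains (hmt1 deletion minus wild type, log2) for each gene with its 95% limma interval, against all 4 wild-type arrays (black circles), replicates 1 and 3 only (green squares) or replicates 2 and 4 only (purple triangles). The 3 values for FIT1, ARN1 and ARN2 are all below 0, while those of the other 4 genes lie on both sides of 0.

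Without wild-type replicate 4, the array lowest for all 7 genes, the remaining wild-type arrays lay above all deletion arrays for 3 genes, FIT1, ARN1 and ARN2. Over all probe sets, 5.82% were lower without overlap in that comparison. This array was left out because it was the lowest for the 7 genes, which raises their wild-type means, so the shares over all probe sets are not a like comparison. The differences then were -1.25 for FIT1, -0.48 for ARN1 and -0.68 for ARN2, and the median of the 7 genes was -0.35. With this array left out, 4 of the 7 genes were lower at an unadjusted p under 0.05 (3.44% of all probe sets) and none after adjustment (limma adjusted p from 0.535 to 0.903, where 0.0182% of all probe sets passed). Without both that array and deletion replicate 2, the median was -0.25 and FIT1 was at -0.94.

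Because the 7 genes shared their low arrays, each pair was also compared within arrays, as the difference of the pair in 1 array. This comparison was chosen after the values had been seen. In 4 of the 21 pairs the within-array differences did not overlap between the strains, where 9.09% of all pairs of probe sets did not. The 21 pairs are not independent, since each gene is in 6 of them. The 4 pairs were FIT1 against FIT2, FIT1 against SIT1, ARN2 against SIT1, and SIT1 against ENB1. FIT1 minus SIT1 was -1.54, -1.91, -2.28 and -2.29 in the wild-type replicates and -2.64, -3.40 and -2.92 in the deletion replicates. FIT1 was thus lower relative to SIT1 in all 3 deletion arrays, by 0.98 in the means. The exact permutation p of 0.0286 was the smallest possible and became 0.185 after Benjamini-Hochberg adjustment over the 21 pairs. ARN2 minus SIT1 differed by -0.54 (exact permutation p = 0.0571, adjusted 0.185). None of the 21 pairs passed the adjustment. With so few splits of the arrays a pair could pass it only if many pairs reached the smallest possible p. The adjusted values therefore decide little. The neighbours FIT2 and FIT3 kept nearly the same distance in every array, with FIT2 minus FIT3 between -0.91 and -0.65 in the wild type and between -0.84 and -0.74 in the deletion strain (difference -0.04, exact permutation p = 0.571).

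**Figure D4:**
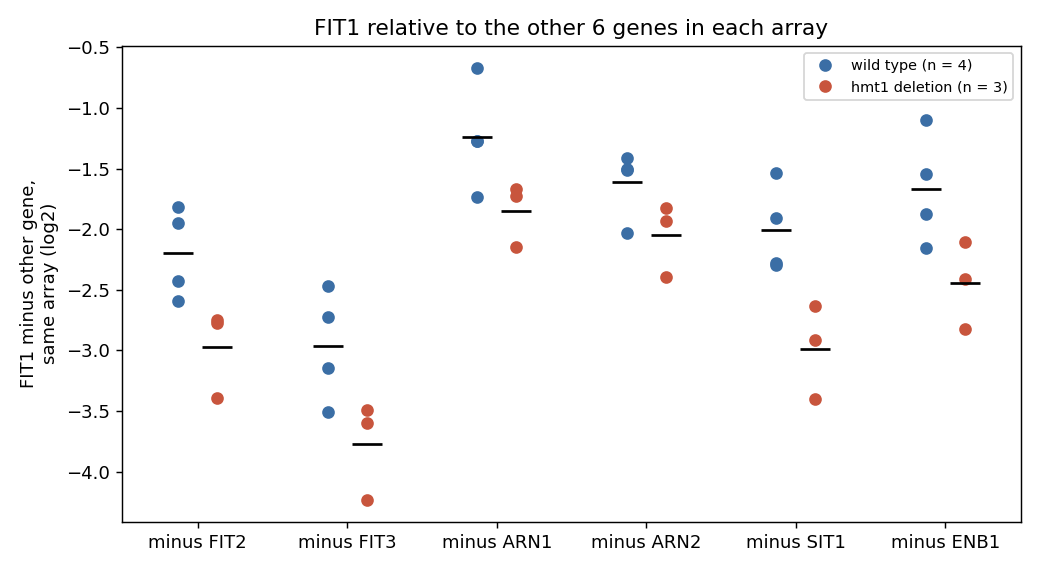
FIT1 minus each of the other 6 genes in the same array (log2), with wild-type arrays in blue (n = 4), deletion arrays in red (n = 3) and black lines at the group means. The deletion means are lower in all 6 comparisons, and the groups do not overlap for FIT2 and SIT1.

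The genes next to the 7 on their chromosomes were compared by the RefSeq R64 gene order. On chromosome XV, FIT2 and FIT3 stand side by side, between YOR381W-A and FRE5, which encodes a protein of the ferric reductase family. FRE5 was at 7.22, 6.53, 6.92 and 5.64 in the wild type and at 6.56, 5.70 and 6.30 in the deletion strain. It shared the low arrays of its neighbours, and its difference of -0.39 (SE 0.37) did not pass (limma adjusted p = 0.840). Without wild-type replicate 4 the FRE5 difference was -0.70. YOR381W-A read 3.73 to 4.20 in all arrays, with a difference of -0.04. On chromosome VIII, ARN2 lies beside COS8, a member of a subtelomeric family, and ARN1 lies beside EFM1, a lysine methyltransferase. COS8 was at 9.98, 11.07, 10.07 and 10.39 in the wild type and at 9.16, 9.47 and 9.47 in the deletion strain. The groups did not overlap for COS8, as in 7.64% of all probe sets, but its difference of -1.01 (SE 0.25) missed the threshold (limma adjusted p = 0.410). Its lowest wild-type array was replicate 1, the highest for ARN2. The other measured neighbours had differences of 0.0011 (HSP31) and -0.02 (STL1) beside FIT1, 0.04 (EFM1) beside ARN1, and 0.07 (HPA3) and -0.10 (AVT2) beside SIT1. No neighbour of ENB1 was measured by a named probe set.

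The genes whose values were most like those of FIT1, the most variable of the 7, were found by the root mean square difference over the 7 arrays after each gene was centred on its own mean. The 6 closest genes outside the 7 were YMR317W (0.31), FRE5 (0.33), TIR4 (0.33), YGR035C (0.38), PHM6 (0.41) and TIR3 (0.42). Within the 7, ARN2 was the closest to FIT1 at 0.33 and SIT1 the farthest at 0.58. TIR3 and TIR4 encode cell wall mannoproteins that yeast makes without oxygen, and PHM6 is a gene of the phosphate response. TIR4 was at 10.06, 8.96, 8.48 and 8.64 in the wild type and at 8.49, 7.85 and 8.29 in the deletion strain. Like FIT1 it was highest in wild-type replicate 1 and lowest in deletion replicate 2, but its lowest wild-type array was replicate 3, where that of FIT1 was replicate 4. The groups did not overlap for YMR317W (-1.06, SE 0.39, limma adjusted p = 0.719), PHM6 (-0.90, SE 0.13, limma adjusted p = 0.0570) and TIR3 (-0.53, SE 0.24, limma adjusted p = 0.742), against 7.64% of all probe sets. None of the 6 genes passed the test over all 7 arrays. The likeness took in the strain difference of FIT1 and so favoured genes lower in the deletion strain. The share over all probe sets is therefore not a like comparison for them.

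The other genes of the Aft1/Aft2 response were not called either. Of the 8 genes of reductive uptake, 0 passed in either direction (limma adjusted p from 0.803 to 0.979), 0 had an unadjusted p under 0.05, 7 were lower and 1 higher, with a median of -0.12. Over all probe sets, 6.64% had an unadjusted p under 0.05 and 47.5% were lower. FET3 and FTR1, the ferroxidase and its permease, differed by -0.06 (SE 0.10) and -0.09 (SE 0.10). FRE1, a surface reductase, was the gene that was higher, at 12.27, 11.53, 12.61 and 10.59 in the wild type and 12.43, 12.38 and 12.67 in the deletion strain. Its difference of 0.74 (SE 0.43) did not pass (limma adjusted p = 0.803), and it was 0.36 without wild-type replicate 4. Against wild-type replicates 1 and 3 FRE1 differed by 0.05, and against replicates 2 and 4 by 1.43. FRE1 is also a target of the copper-sensing factor Mac1. The reductive uptake genes had a median of -0.24 against wild-type replicates 1 and 3 and of -0.0093 against replicates 2 and 4.

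Of 11 further Aft1/Aft2 targets, for vacuolar and mitochondrial iron transport, copper supply and iron sparing, 0 passed, 1 had an unadjusted p under 0.05 (6.64% of all probe sets), and 8 were lower (47.5% of all probe sets) and 3 higher, with a median of -0.13. ATX1, the copper chaperone, was at -0.32 (SE 0.13, limma adjusted p = 0.742), and COT1, a vacuolar metal transporter, was at -0.18 (SE 0.11). The low arrays of the 7 siderophore-iron genes were shared by many of these genes. Wild-type replicate 4 was the lowest wild-type array in 17 of the 19 other Aft1/Aft2 targets, against 15.7% of all probe sets. Deletion replicate 2 was the lowest deletion array in 15 of them (45.3% of all probe sets), and both held in 13 (68.4%, against 5.27% of all probe sets). The 11 further targets had nearly equal medians against the wild-type pairs, -0.08 against replicates 1 and 3 and -0.07 against 2 and 4. Single genes nevertheless changed sign between the pairs. Against replicates 1 and 3, 9 were lower and 2 higher, and against 2 and 4, 6 were lower and 5 higher.

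The 2 activators themselves had small differences. AFT1 was at 9.30, 9.23, 9.44 and 9.06 in the wild type and at 9.36, 9.17 and 9.38 in the deletion strain, with a difference of 0.04 (SE 0.10, limma adjusted p = 0.923). AFT2 differed by 0.07 (SE 0.08). AFT1 was lowest in wild-type replicate 4 and in deletion replicate 2, as the 7 genes were, within a range of 0.39 over the 7 arrays. The 8 genes of iron sensing and storage were all higher by mean, where 52.5% of all probe sets were, with a median of 0.09, and 0 passed (1 at an unadjusted p under 0.05, against 6.64% of all probe sets). Against wild-type replicates 1 and 3, 5 of the 8 were higher and 3 lower (median 0.02), and against replicates 2 and 4 all 8 were higher (median 0.16). Without wild-type replicate 4, 5 were higher and 3 lower (median 0.08). The groups did not overlap for 1 of the 8, against 7.64% of all probe sets. This was CCC1, the vacuolar iron importer, at 0.17 (SE 0.07, limma adjusted p = 0.742). FRA1, which restrains Aft1, was at 0.18 (SE 0.10).

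Of the 20 genes for iron-using proteins, 10 were lower (47.5% of all probe sets) and 10 higher, with a median of 0.03, and 0 passed (4 at an unadjusted p under 0.05, against 6.64% of all probe sets). The medians against wild-type replicates 1 and 3 and against 2 and 4 were -0.0030 and 0.09. The groups did not overlap for 3 of the 20, against 7.64% of all probe sets. These were BIO2, biotin synthase, at -0.28 (SE 0.05, limma adjusted p = 0.185), CCP1, cytochrome c peroxidase, at 0.25 (SE 0.08, limma adjusted p = 0.611), and HEM15, ferrochelatase, at 0.17 (SE 0.12, limma adjusted p = 0.825). RIP1, the Rieske iron-sulfur protein of the respiratory chain, was at 0.35 (SE 0.13, limma adjusted p = 0.722) and ACO1, aconitase, at 0.30 (SE 0.20). GEX1, a glutathione exchanger related in sequence to the ARN transporters, was at -0.28 (SE 0.30). Its probe set is of the type that may also match other transcripts. The 4 markers of alpha cells, the opposite mating type, had wild-type replicate 4 as the lowest wild-type array in 0 of 4 cases and deletion replicate 2 as the lowest deletion array in 3 of 4 (15.7% and 45.3% of all probe sets). Of these markers 0 passed (0 at an unadjusted p under 0.05), 2 were lower and 2 higher (median -0.02, and -0.00033 and -0.03 against the wild-type pairs). The log2 of their summed unlogged signals was 9.32 to 9.59 in the wild type and 9.27 to 9.42 in the deletion strain. SAG1, the brightest of them, made up most of this sum, so it says little about the others. SAG1, the alpha-agglutinin, was at -0.18 (SE 0.09, limma adjusted p = 0.796) without overlap of the groups, as in 7.64% of all probe sets. MFALPHA1, which encodes the alpha pheromone, read 3.95 to 4.14 in all arrays, and the highest of them was deletion replicate 1.

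**Figure D5:**
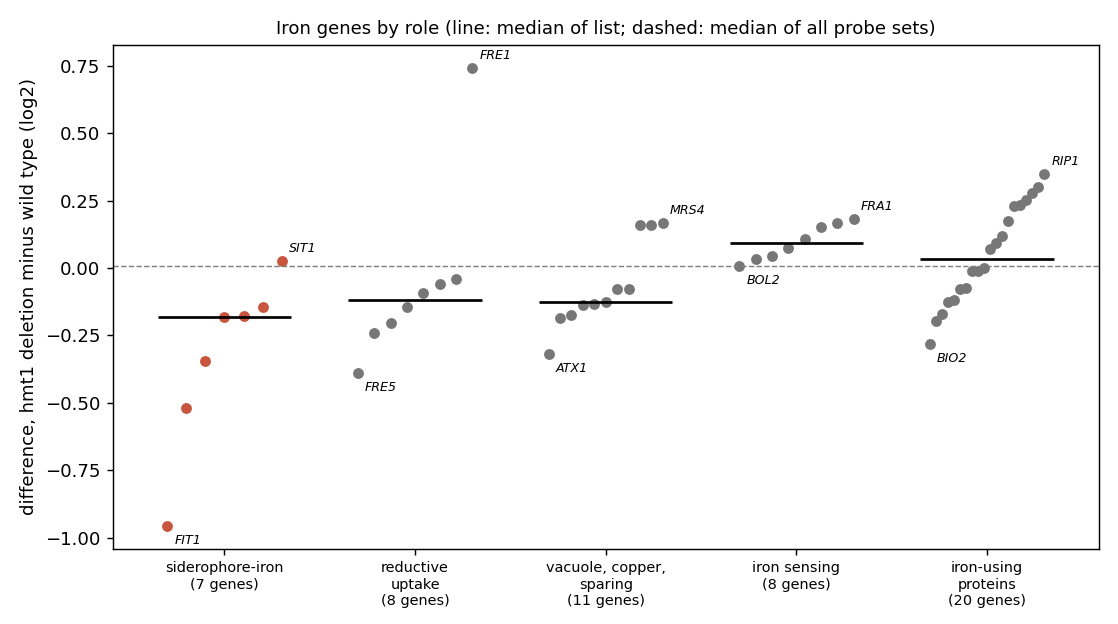
Difference between the strains (hmt1 deletion minus wild type, log2) for each iron gene, grouped by role, with the siderophore-iron genes in red; solid lines are list medians (-0.18, -0.12, -0.13, 0.09 and 0.03 from left to right) and the dashed line is the median of all probe sets (0.0065). None of the points passed the test over all probe sets.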

How the data were processed

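Total RNA of 7 yeast cultures was hybridised to 1 array each. The deposited values are log2 expression per probe set, made by the authors by RMA, which corrects background, equalises quantiles and fits each probe set by median polish, with affy 1.52.0, per the submitters' processing notes. RMA sets all arrays to a like distribution, so a change in total messenger RNA cannot be seen. The number of arrays limits the precision. Genes were named by the platform annotation, with 12 symbols updated from RefSeq R64; 402 of 5900 probe sets had no gene name and were not compared. The files name no genome build, so no coordinates are given.

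The comparison of probe sets was two-sided, by limma 3.58.1 (lmFit, then eBayes; R 4.3.3), with Benjamini-Hochberg adjustment over 5498 probe sets and a threshold of 0.05. Errors of differences are standard errors of that fit. Exact permutation tests used the 35 splits of the arrays. The fit was tested on simulated data. The genes and lists were chosen with earlier results of these data known. Beside the 7 genes, the text names HMT1, AFT1 and AFT2, the 2 genes with the largest difference in each list, measured neighbours and the 6 genes most like FIT1; FET3, FTR1, BIO2, CCP1 and HEM15 were added after their values were seen. Alternatives left out arrays or dim probe sets, rescaled the arrays, or changed the moderation, weights or block. Python 3.11.15 and matplotlib 3.10.9 drew the figures.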

Additional observations from a re-analysis of the deposited data

Results flagged for a closer look

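In 3 of the 32 named probe sets checked, the gap between 1 wild-type array and the nearest of the others was a large share of the range of the 4 (Dixon's rule); chance alone gives about 1 in 20 such cases. YMR317W, the gene most like FIT1, was at 8.46 in wild-type replicate 1 and at most 7.03 in the others (share 0.873). The other cases are of small size: STL1 was at 5.59 in replicate 2 and at an identical value, 5.52, in the others (share 1, which tied values give whatever the gap), and MFALPHA1 was at 3.95 in replicate 2 and at 4.11 in the nearest (share 0.933). They do not show that an array stood far off. None of the 7 siderophore-iron genes was among them.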

How the results depend on the processing

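Under all 17 alternatives 0 of the 7 genes passed, and 0 of the 52 other listed genes passed in the 9 comparisons run for them, which left out each array in turn or kept 1 wild-type pair. Of the neighbours and the genes most like FIT1, PHM6 passed without wild-type replicate 1 (limma adjusted p = 0.0491). PHM6 also passed with robust moderation (limma adjusted p = 0.0475) and with array weights (limma adjusted p = 0.0172). COS8 passed with array weights (limma adjusted p = 0.0196). Leaving out each array in turn gave -1.25 to -0.65 for FIT1, -0.35 to -0.05 for FIT2, -0.26 to -0.05 for FIT3, -0.48 to -0.19 for ARN1, -0.68 to -0.33 for ARN2, -0.31 to -0.06 for ENB1 and -0.18 to 0.13 for SIT1. The median of the 7 genes was -0.35 to -0.08. SIT1 turned its sign when wild-type replicate 4 (-0.18), deletion replicate 3 (-0.06) or both lowest arrays (-0.077, a comparison chosen after seeing the data) were left out, against wild-type replicates 1 and 3 (-0.25) and with the replicate number as a block (-0.18). Against wild-type replicates 2 and 4, ENB1 (0.019), FIT2 (0.12) and FIT3 (0.076) turned theirs. With array weights, ARN1 (0.0042), ENB1 (0.12), FIT2 (0.18) and FIT3 (0.12) turned theirs, and the median of the 7 was 0.12. The cause was not tested.

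Whether the replicate numbers pair the samples cannot be told from so few cultures. Deviations of same-numbered cultures correlated at -0.03, 0.17 and -0.51 over all probe sets. Those of differently numbered cultures correlated at -0.30 to 0.36. With the replicate block the median of the 7 was -0.35, 6 of the 7 were lower at an unadjusted p under 0.05 (3.13% of all probe sets), and 1 probe set of all passed in place of 11. Replicate number 4 occurred only in the wild type, so the block took that array out of the comparison. The differences were the same as without wild-type replicate 4, the array lowest for all 7 genes. For FIT1 the SE was 0.20 with the block and 0.30 without that array, and for ARN1 it was 0.14 in both. The share over all probe sets is again not a like comparison. All probe sets called numbered 59 with array weights, 0 without dim probe sets and 3 without wild-type replicate 3. They numbered 1 when wild-type replicate 4, any 1 deletion array or both lowest arrays were left out. Against wild-type replicates 1 and 3 they numbered 7. The dim filter kept probe sets with a mean over the 7 arrays of at least 8.82. It left out HMT1 itself, whose mean fell just below, so HMT1 was not tested in that setting.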
